A study of Mus musculus with 6 samples.

Results

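The calls described here are the C to T changes that the Strelka somatic caller passed when the bone marrow exome of a mouse was set against the exome of its own ear. A call was taken when its reference and changed bases were C and T, or G and A, which is the same change read from the other DNA strand. The rule found 2044 of 6412 Strelka single nucleotide calls, with 916, 481 and 647 in animals 54, 108 and 136. The calls were chosen by their base change and by the caller's pass filter, both measured on these samples. They are 32.1%, 32.5% and 31.1% of the calls of these animals, a share that the choice of calls fixes and that is given as a description. Whole bone marrow was the tested tissue and ear the matched germline control, with 3 samples of each. All 3 animals were C57BL/6 mice with the P95H change of Srsf2, and all had received tamoxifen in vivo, so marrow and ear shared genotype label and treatment. How far the allele was recombined in either tissue was not measured here. Animals 54 and 108 were males and animal 136 was a female. They were killed when moribund, 50 to 60 weeks after tamoxifen according to the protocol, while an age label gives the same number of weeks. The sample titles give every animal R26CreERT2, a tamoxifen-activated Cre recombinase expressed from the broadly active Rosa26 locus, whereas the protocol gives 1 animal hScl-CreERT with R26eYFP. Under either driver recombination happens in living animals and need not reach every cell. Whole marrow is a mixture of cell types, so the variant fraction of a call is an average over them.

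Cytosine in mammalian DNA is mostly methylated where a guanine follows it, at the dinucleotide called CpG. A methylated cytosine that loses its amino group becomes thymine, which makes C to T at CpG one of the commonest changes that DNA gathers with age in many tissues, blood included. In protein-coding sequence the CpG falls most visibly on arginine, because most arginine codons begin with CG. A change of that C leaves tryptophan, cysteine or a stop, and a change of the G, which is a C to T on the other strand, leaves histidine or glutamine. Glutamine and tryptophan codons hold no CpG inside them, yet a single C to T or G to A turns them into stops. The sites called in both marrow and ear of the same animal (9356, 14957 and 2869 C to T sites in animals 54, 108 and 136) were taken as the inherited background. C to T is read there from the reference genome to the animal, and which of the bases is the older was not determined.

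The bases around a call could be read where it lay near a gene start, since RefSeq promoter windows (250 bases before to 50 after the start, build GRCm38.p6) were at hand. Of the 2044 calls, 35 lay in such a window with at least 10 bases on each side, and at all 35 the window held the reference base of the call. The sequences below run 5′ to 3′ on the strand of the gene, and capitals mark the changed base, together with its partner where it lay in the CpG. They show the CpG calls that SnpEff annotated to the gene of the window, and the calls in windows with reads in the marrow list.
Dmrtb1, chr4:107683702-107683722, minus strand: ccgttcctcCGcgtggctgcc
Rad51ap2, chr12:11456079-11456099, plus strand: atgtctctgtCGcgccccgcg
Hira, chr16:18876584-18876604, plus strand: ctgaggtaccCGgtcgggtct
Rnf151, chr17:24718039-24718059, minus strand: tcagtccacaCGtgctgtcaa
Mitf, chr6:97929801-97929821, plus strand: tgacacagcCGgtgccagaag
Lmtk3, chr7:45783873-45783893, plus strand: agccgtgctgCGcgcgcagct
Ramp3, chr11:6658433-6658453, plus strand: tctaggcaaCGgagggagtca
Rab13, chr3:90220806-90220826, plus strand: gggactccggCGgtttctgcc
Cdsn, chr17:35552124-35552144, plus strand: cccagagaatGtccagcccgg

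The searched motif was CG, which reads the same on both strands. It was present in 13 of the 35 calls in a window (37.1%, 95% Clopper-Pearson interval 21.5 to 55.1), against 111 of 336 shared sites in all such windows (33.0%, 28.03 to 38.4), where a position shared by several animals counts once in each. By animal the calls in CpG were 5 of 15, 4 of 10 and 4 of 10, against 31 of 101, 65 of 195 and 15 of 40 shared sites. Among every C and G of the 32851 windows, 15.4% lay in a CpG, and 94.6% of the windows held the motif at least at 1 place. The pooled intervals of calls and of shared sites both lie above the 15.4% of window bases. By animal the intervals of calls begin below it, at 11.8%, 12.2% and 12.2% in animals 54, 108 and 136. The difference from window bases was not tested. The intervals of calls and shared sites overlap widely, and at 35 calls a difference of several points was not detectable. Rnf151, which encodes a testis ring finger protein, is the call among these in which the change makes a start codon ahead of the reading frame (the ACG above becoming ATG). Hira, a histone H3.3 chaperone gene whose window also holds the start of Mrpl40, had the change in 6 of 46 marrow reads (13.0%). Dmrtb1 had it in 6 of 62 reads (9.68%), Rad51ap2 in 4 of 31 (12.9%) and Cdsn, the corneodesmosin gene, in 4 of 28 (14.3%).

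Over the whole set, 1192 calls fell in codons, 527, 280 and 385 in animals 54, 108 and 136. They were 741 missense changes, 382 synonymous changes and 69 stop gains. They lay in 1115 genes. A further 14 hit a splice site and 1, in the deubiquitinase gene Usp48, the start codon. SnpEff graded 86 calls as of high impact, 742 as moderate, 447 as low and 769 as modifier, the last grade covering introns, untranslated and intergenic sequence. At coding shared sites the median number of reads ran from 99 to 164.5 over the marrow samples and from 106 to 151 over the ear samples. The Strelka lists give a quality for each call and no reads. That quality, a Phred-scaled value of the caller, ran from 15, the lowest passed, to 127. Its median was 27, 23 and 22 for the C to T calls and 27, 23 and 21 for the other Strelka classes of the same animals. The mean difference of the medians was 0.333 ± 0.577 (SD, n = 3 animals; two-sided exact sign-flip test over animal pairs, p = 1). With 3 pairs this exact test cannot give a p below 0.25, so here and below it cannot pass 0.05. The animals are separate mice, and every p from 3 pairs measures the spread between them. Fisher's exact tests within an animal compare its 2 lists of sites, treat neighbouring sites inherited together as independent, and so give p-values that are too small. For the 6 shares set against shared sites their adjusted values are Benjamini-Hochberg values over 18 tests, and other families are given where they are used.

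No excess of CpG was detected among the C to T calls over inherited C to T sites. Whether a changed C has a G after it can be told from the annotated codon in 601 of the 1192 coding calls, and 185 of these lay in CpG and 416 did not. By animal the CpG share was 28.9% (76 of 263), 35.7% (55 of 154) and 29.3% (54 of 184) of calls in animals 54, 108 and 136, against 33.8%, 34.8% and 38.5% of shared sites. The share of calls was lower than that of shared sites in animals 54 and 136 and higher in animal 108. Calls averaged 31.3% ± 3.81 and shared sites 35.7% ± 2.48 (SD, n = 3), a difference of -4.41 points ± 5.06 (exact sign-flip test, p = 0.5). Fisher's exact test gave adjusted p = 0.212, 0.909 and 0.1001 in animals 54, 108 and 136. The difference was -7.06 points without animal 108 and -2.02 without animal 136. Among calls with a quality of at least 30 it was -8.60 points, lower in 3 of 3 animals (exact sign-flip test, p = 0.25). Against ear-only sites, those called in ear but absent from the marrow list, the direction turned, to 1.06 points. The other 591 coding calls stayed undecided, 444 because the neighbouring base is outside the codon and 147 because it differs among the codons of the residue, as in the 99 changes of alanine to valine.

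The undecided codons do not fall evenly on the kinds of change, so the share was also taken over amino acid changing calls alone, a choice made after the data were seen. It averaged 34.3% ± 1.61 for calls and 40.3% ± 8.85 for shared sites (SD, n = 3), a difference of -5.99 points (exact sign-flip test, p = 0.5). In animal 136 calls minus shared sites came to -16.9 points (Fisher's exact adjusted p = 0.0254 over 6 added tests), whereas the differences of animals 54 and 108 were 1.003 and -2.03 points, with an exact adjusted p of 0.843 in both. Without animal 136 the mean difference was -0.51 points, and against ear-only sites it was 1.38 points. At synonymous changes of a G at codon position 3, 45 of 175 decidable calls were in an NCG codon (25.7%, 19.4 to 32.9), against 544 of 1472 shared sites (37.0%, 34.5 to 39.5). The share was 20.5%, 38.1% and 23.3% of calls in animals 54, 108 and 136, against 38.0%, 36.6% and 35.0% of shared sites. Animals 54 and 136 were lower and animal 108 was not, the same split as over all decidable codons, of which these sites are a part.

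**Figure D1:**
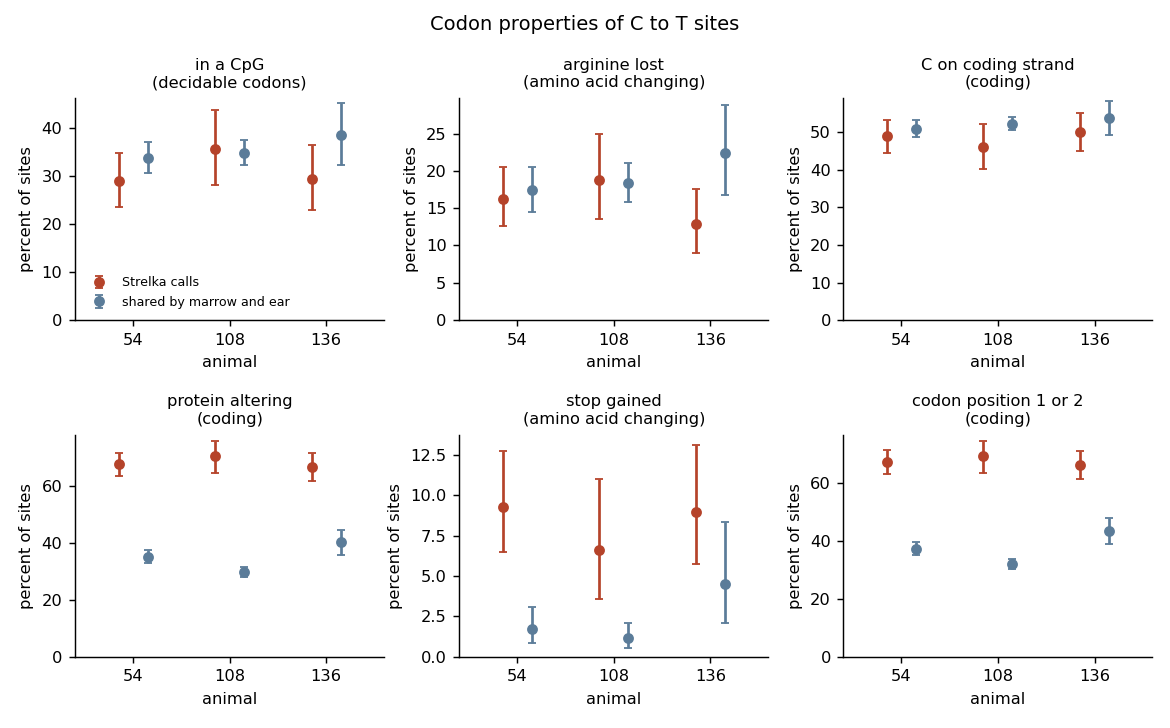
Each panel gives a share of C to T sites in percent by animal, with Strelka calls in red to the left of sites shared by marrow and ear in blue; points are shares of sites and bars are 95% Clopper-Pearson intervals. In the top row the intervals of calls and shared sites overlap in every animal, whereas the protein altering share and the share at codon positions 1 or 2 lie apart in all 3 animals.

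Arginine, the residue that CpG changes remove most directly, was lost in 128 of the 810 amino acid changing calls, in 128 different genes. The share was 16.3% (58 of 356), 18.8% (37 of 197) and 12.8% (33 of 257) of calls in animals 54, 108 and 136, against 17.4%, 18.4% and 22.4% of shared sites. The shares lay close in animals 54 and 108, and in animal 136 that of calls was lower. Calls averaged 16.0% ± 2.98 and shared sites 19.4% ± 2.64 (SD, n = 3), a difference of -3.42 points ± 5.36 (exact sign-flip test, p = 0.5). Fisher's exact adjusted p was 0.815, 0.919 and 0.0168. Without animal 136 the difference was -0.36 points, and against ear-only sites it was -0.25 points. The 95% intervals on the shares of calls were 12.6 to 20.6%, 13.6 to 24.9% and 9.01 to 17.6% in animals 54, 108 and 136.

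Within arginine the codons differed. In 123 of the 128 losses (96.1%, 91.1 to 98.7) the codon was CGN and the change therefore in a CpG, against 258 of 318 among shared sites (81.1%, 76.4 to 85.3). The rest were changes of arginine to lysine, which only the AGA and AGG codons allow. There were 5 of these among the calls. By animal the CGN share was 96.6%, 94.6% and 97.0% of calls in animals 54, 108 and 136, against 79.3%, 79.6% and 91.1% of shared sites, higher in 3 of 3 animals. The calls turned arginine into histidine 37 times, tryptophan 29, glutamine 25, cysteine 21, a stop 11 and lysine 5. The C at codon position 1, the coding strand side of the CpG, was the changed base in 61 of 128 (47.7%, 38.8 to 56.7), against 81 of 318 shared sites (25.5%, 20.8 to 30.6). This share was 37.9%, 54.1% and 57.6% of calls in animals 54, 108 and 136, against 23.4%, 23.5% and 37.8% of shared sites. These slices were chosen after values were seen and were not tested. Of the 128 losses, 44 had a quality of at least 30, and 12 were in the marrow list of the same animal.

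The arginine losses of highest quality reached several kinds of protein. Mmp9, the gelatinase of neutrophils and macrophages, had R603H in animal 54 with a quality of 106, the highest of them. Stox2, a winged-helix protein gene, had R21W (quality 77), the adrenergic receptor gene Adrb3 R141C (71), the adenosine kinase gene Adk R170Q (61) and Mtus1, a microtubule-associated tumour suppressor candidate, R708Q (58), all in animal 54. Itih5, a member of the inter-alpha-trypsin inhibitor heavy chain family, lost arginine 784 of 952 to a stop (R784*, quality 65) in animal 54. Kctd1, a BTB domain protein gene, had R403Q (54) in the same animal. In animal 108 Zap70, the kinase next to the T cell receptor, had R128H (56) in exon 2 of 13, and in animal 136 the renin-binding protein gene Renbp had R87H (55) on chromosome X. In animal 108 Dnmt3a, the DNA methyltransferase that is often mutated in human clonal haematopoiesis, had R362H in exon 9 of 23 (ENSMUSG00000020661, chromosome 12, position 3896660, quality 76). In all 10 the changed base was in a CpG. None of the 10 was in the marrow list, so no read count is known for any of them.

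Alanine, and not arginine, was the residue lost most often. It was lost in 219 of the 810 calls, 27.5%, 23.4% and 29.2% in animals 54, 108 and 136, against 19.7%, 20.1% and 23.4% of shared sites. Each animal was higher among calls than among its own shared sites, but the ranges of the animals overlapped slightly. Alanine went to threonine in 120 calls and to valine in 99. Proline (78 calls), glycine (75) and valine (52) followed arginine. Valine made up 6.61% ± 1.56 of calls and 12.5% ± 1.64 of shared sites (SD, n = 3), with no overlap between the animals' values. Cysteine, which a G to A on the coding strand turns into tyrosine, made up 4.38% ± 0.795 of calls and 1.38% ± 0.792 of shared sites. Serine and threonine were at 4.43% ± 1.95 and 4.65% ± 1.38 of calls and at 7.46% ± 1.48 and 7.62% ± 0.882 of shared sites. A positive charge (arginine or lysine) was lost in 112 of the 741 missense calls (15.1%) and gained in 43 (5.80%), against 14.7% and 6.63% of shared missense sites. A negative charge was lost in 47 calls (6.34%) and gained in 41 (5.53%), against 7.28% and 3.49% of shared sites. No test was run over residues, since their shares depend on each other.

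**Figure D2:**
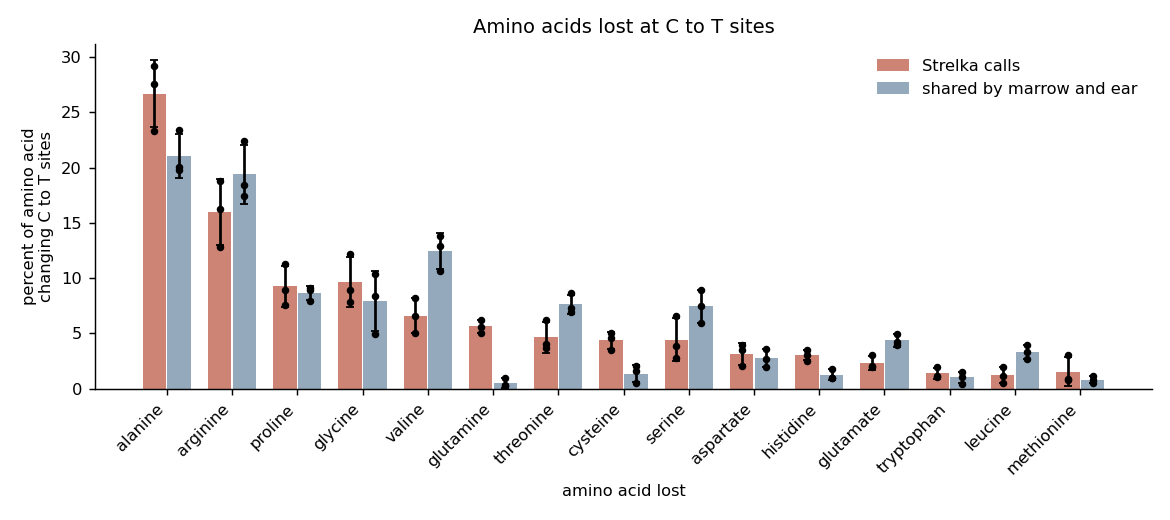
Bars give the mean share, in percent of amino acid changing C to T sites, of each amino acid lost, with Strelka calls in red to the left of shared sites in blue; error bars are the SD over 3 animals and black points are the animals. Glutamine averaged 5.64% of calls and 0.512% of shared sites, while valine averaged 6.61% of calls and 12.5% of shared sites.

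Most coding calls changed the protein, and most coding inherited sites did not. Missense and stop changes made up 67.6%, 70.4% and 66.8% of coding calls in animals 54, 108 and 136, against 35.1%, 29.7% and 40.2% of coding shared sites. Other classes of Strelka calls were also mostly amino acid changing, at 78.9%, 79.6% and 77.6% for C to A and 70.5%, 70.8% and 66.8% for T to C in the same order of animals. Every animal's calls lay above all shared values, a mean of 68.2% ± 1.89 against 35.0% ± 5.25 (SD, n = 3). The difference was 33.2 points ± 7.09 (exact sign-flip test, p = 0.25, the smallest possible), with Fisher's exact adjusted p = 4.25e-39, 4.25e-39 and 1.52e-14. The other side of the same counts is the position in the codon. Of the 1192 coding calls 449 were at position 1, 357 at position 2 and 386 at position 3, and positions 1 and 2 together held 67.8% ± 1.41 of calls and 37.6% ± 5.64 of shared sites, a difference of 30.1 points (exact sign-flip permutation p = 0.25). Against ear-only sites these differences shrank to 8.38 and 6.96 points. The protein altering share of ear-only sites was 50.8%, 64.4% and 64.4% in animals 54, 108 and 136. Most of the distance to shared sites was thus also present at ear-only sites in animals 108 and 136, but only the lesser part of it in animal 54. Codon positions 1 and 2 split the animals in the same way.

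Stop gains were commoner among the calls, and mostly in glutamine codons. They made up 9.27%, 6.60% and 8.95% of amino acid changing calls in animals 54, 108 and 136, against 1.72%, 1.14% and 4.48% of shared sites. All 3 animals were higher, by 5.83 points ± 1.57 on average (SD, n = 3; exact sign-flip test, p = 0.25). Fisher's exact adjusted p was 3.16e-07, 8.16e-05 and 0.1005. Against ear-only sites the difference was 2.44 points, higher in 2 of 3 animals and lower in animal 108 (exact sign-flip test, p = 0.5). Glutamine was the residue in 46 of the 69 stops (66.7%, 54.3 to 77.6), tryptophan in 12 and arginine in 11. Among the 30 shared stops it was glutamine in 6, tryptophan in 14 and arginine in 10. A glutamine codon was turned into a stop in 20, 10 and 16 calls of animals 54, 108 and 136, against 2 shared sites in each animal. The stops lay in 69 genes, at a median of 59.0% of the protein length, and 56 of them before 90% of it. Their median quality was 25, and 4 were in the marrow list.

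The stops of highest quality were W254* in 4930430F08Rik (quality 66), Q289* in Celf2 (65), R784* in Itih5 (65), Q584* in Atp9b (64) and W236* in Katnbl1 (59), all in animal 54. Celf2 is an RNA-binding regulator of splicing, and its stop fell in exon 8 of 14, at 54.9% of the protein. Atp9b is a phospholipid flippase of the secretory pathway, cut at 51.5%. Animal 136 had Q781* in Pear1 (58), a platelet endothelial aggregation receptor, Q115* in Bloc1s2 (55), a subunit shared by lysosome-related complexes, and Q242* in E2f5 (50), a cell cycle transcription factor. Animal 108 had W32* in the homeobox gene Nkx2-6 (52), at 11.1% of the protein, and Q251* in Unc119b (55). The Unc119b stop replaces the last of 251 residues, so that it removes a single amino acid. Itih5 is the stop among these 10 that lies in a CpG. None of these 10 stops was in the marrow list, so their read counts are unknown.

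Splice sites were hit by 14 calls, 8 at acceptors and 6 at donors. In 13 of them G changed to A on the coding strand, at the G that ends or begins nearly every intron. They included the donors of Wdr77 (quality 50, animal 136), a partner of the arginine methyltransferase Prmt5, of the cyclophilin gene Ppig (quality 40, animal 108) and of the ubiquitin ligase gene Herc2 (quality 19, animal 108). The acceptor of Entpd8, a nucleotide-splitting ectoenzyme, was hit with a quality of 46 in animal 108. The exception was Fmnl2 (quality 23, animal 54), where C changed to T on the coding strand at the last base of the annotated intron. None of the 14 was in the marrow list. A further 10 calls made a start codon ahead of the reading frame, 7 by C to T and 3 by G to A on the coding strand. They included the cyclophilin gene Ppib (quality 50), the costimulatory ligand gene Cd86 (quality 29), the Fanconi anaemia gene Fance (quality 31) and Cidea (quality 19), the last in 4 of 40 marrow reads.

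Amino acid changing calls lay in 754 of the 21900 protein-coding genes of RefSeq (3.44%), a share given for scale beside 3 gene lists. Of 32 genes of myeloid neoplasia 1 had such a call (3.12%), Dnmt3a, with R362H in animal 108 and A382T (quality 16) in animal 136. Of 13 splicing factors 1 had a change (7.69%), Sf3a3, a subunit of the U2 particle, with G276E (quality 57, animal 136) in exon 10 of 17. Of 24 genes of cytosine methylation, deamination and repair 5 had 6 changes (20.8% of the list). Besides both in Dnmt3a these were V180I in the methyltransferase gene Dnmt3b (quality 37, animal 136), R81C in Ung, the uracil glycosylase that removes deaminated cytosine (26, animal 108), C119Y in the cytidine deaminase gene Apobec3 (29, animal 54) and V376I in Uhrf1 (18, animal 54), which guides methylation to newly copied DNA. Counting also genes not matched to RefSeq, 769 had an amino acid changing call. The lists were drawn up with earlier results of these data known. Their shares can therefore not be read as an enrichment over the 3.44%, and none was tested. None of their 7 amino acid changing calls was in the marrow list. Other calls in listed genes were in it, among them Zrsr1 (30.8% of 13 reads), Ptpn11 (23.5% of 17) and Xrcc1 (12.5% of 32) in animal 54. These did not change an amino acid.

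The calls lay more often on a G than on a C of the reference strand, in genes of both orientations. The reference base was G in 52.3% (49.0 to 55.6), 60.5% (56.0 to 64.9) and 57.3% (53.4 to 61.2) of calls in animals 54, 108 and 136, against 49.5%, 49.9% and 49.9% of shared sites. Animal 108 was the highest and animal 54 the lowest, and all 3 were above their shared sites. The difference was 6.94 points ± 3.94 (SD, n = 3; exact sign-flip test, p = 0.25). Fisher's exact adjusted p was 0.167, 3.15e-05 and 0.00204 over the 6 added tests. Over the pooled coding calls G was the reference base of 57.8% (53.8 to 61.8) in genes on the forward strand. In genes on the reverse strand the pooled share was 55.5% (51.4 to 59.6). At shared sites it was 48.2% and 52.2%. In forward genes animals 54, 108 and 136 had 54.9% (48.7 to 61.0), 64.8% (56.8 to 72.2) and 56.15% (48.7 to 63.4) of calls. In reverse genes they had 52.9% (46.6 to 59.1), 60.3% (51.04 to 69.1) and 56.1% (48.85 to 63.1). Every animal's share of calls was above an even split in both orientations. The intervals of animals 54 and 136 reached below it in both, and those of animal 108 did not. The C of the coding strand, by contrast, was changed in 49.0%, 46.1% and 50.1% of coding calls, against 51.0%, 52.3% and 53.8% of shared sites, a difference of -3.98 points ± 2.12 (exact sign-flip permutation p = 0.25; Fisher's exact adjusted p = 0.514, 0.0942 and 0.397). Among calls with a quality of at least 30 it was -2.05 points. This share missed the threshold in each animal. Other Strelka classes were uneven too. For C to A the purine was the reference base in 27.7%, 26.2% and 32.6% of calls in animals 54, 108 and 136, to the opposite side of C to T. This comparison was chosen after the data were seen.

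**Figure D3:**
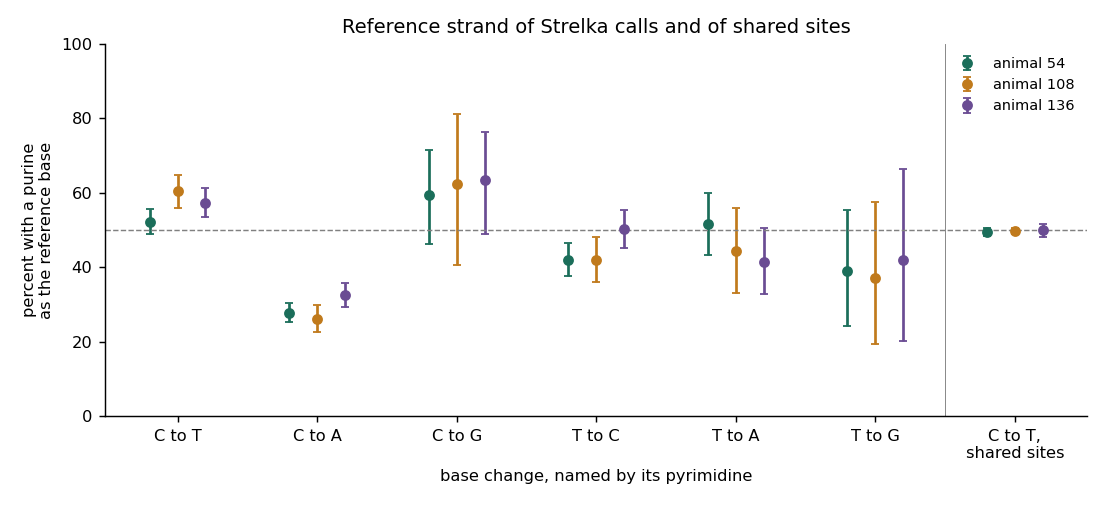
Points give the percent of Strelka calls whose reference base is the purine, by base change and animal, and at the far right the same for C to T sites shared by marrow and ear; bars are 95% Clopper-Pearson intervals and the dashed line is at an even split. The C to T calls of animals 108 and 136 lie above the line, the C to A calls of all 3 animals below it, and the shared sites on it.

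Reads could be seen for a small part of the calls. The list of all variants of the animal's own marrow held 147, 61 and 57 C to T calls, 16.1%, 12.7% and 8.81%, against 17.5%, 13.3% and 8.67% of the other Strelka classes (difference -0.65 points ± 0.80, SD, n = 3; exact sign-flip test, p = 0.5; Fisher's exact adjusted p = 0.933 in each animal, over 3 tests). The ear list of the same animal held none of them. At these 265 sites the marrow depth was 11 to 84 reads with a median of 33, and the changed base was in 3 to 12 reads with a median of 4. The variant fraction had a median of 13.3%, and 223 of the 265 were under 20%. The lowest fraction was 9.68%, not far below the median. The median thus describes the calls that the list held and not the calls outside it. Protein-altering calls in this list numbered 80. C to T calls with a quality of at least 30 were in the list less often, a mean of 7.79% against 12.5% of all. The median quality of C to T calls in the list was 27, 20 and 19 in animals 54, 108 and 136. Outside it the median was 27, 24 and 23.

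The protein-altering calls with most reads had 8 each. These were A51V in the lipid transporter gene Abca12 (8 of 64 reads, 12.5%, 5.55 to 23.2), P233L in the elongation factor gene Ell3 (8 of 81, 9.88%, 4.36 to 18.5) and R214W in the receptor gene Mas1 (8 of 70, 11.4%, 5.06 to 21.3) in animal 108. Animal 136 had A433V in the cyclin gene Ccnl2 (8 of 42, 19.0%, 8.60 to 34.1) and G79D in the centrin gene Cetn3 (8 of 52, 15.4%, 6.88 to 28.1). Animal 54 had R82H in Ccdc62 (8 of 61, 13.1%, 5.84 to 24.2). Tmem2 A994T (7 of 56), Aox1 E994K (6 of 42), Rsu1 L228F (6 of 54) and the stop Q638* in Ttll11 (6 of 42) followed. The last 3 were taken in chromosome order from 18 calls tied at 6 reads. The intervals cover counting error alone and take the reads as independent draws. Reads that carry no molecular identifier may be copies of each other, and the intervals would then be too narrow. The even split over the strands described below was not allowed for in them.

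The reads with the changed base were split evenly over the strands to a degree that the reference reads were not. Where 4 reads held the change, 165 of 170 sites (97.1%, 93.3 to 99.04) had 2 forward and 2 reverse reads, in 95 of 98, 37 of 39 and 33 of 33 sites of animals 54, 108 and 136. Other Strelka classes showed the same, with 380 of 387 (98.2%). Shared C to T sites with 4 variant reads in marrow, a small part of all 27182, had 2 and 2 in 19 of 510 (3.73%, 2.26 to 5.76). All 4 were on 1 strand in 445. C to T sites of the marrow list that were neither in ear nor a Strelka call had 2 and 2 in 116 of 1204 (9.63%). At the Strelka sites with 4 to 12 variant reads in an even number, forward and reverse were equal in 240 of 247 (97.2%). Reference reads of the 265 sites were equal in 6 of the 132 with an even number (4.55%), with a median gap of 13 reads between the strands. Reference reads are more numerous at a site than changed reads, and exact equality is rarer at larger numbers. The 4.55% can therefore not be set directly against the 97.2%. Each of the 6 calls above with 8 reads had 4 on each strand. Ccdc62, for example, had 4 forward and 4 reverse reads of the changed base and 8 forward and 45 reverse reads of the reference base. How many separate DNA fragments these reads came from was not tested, and the comparison was chosen after the data were seen.

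**Figure D4:**
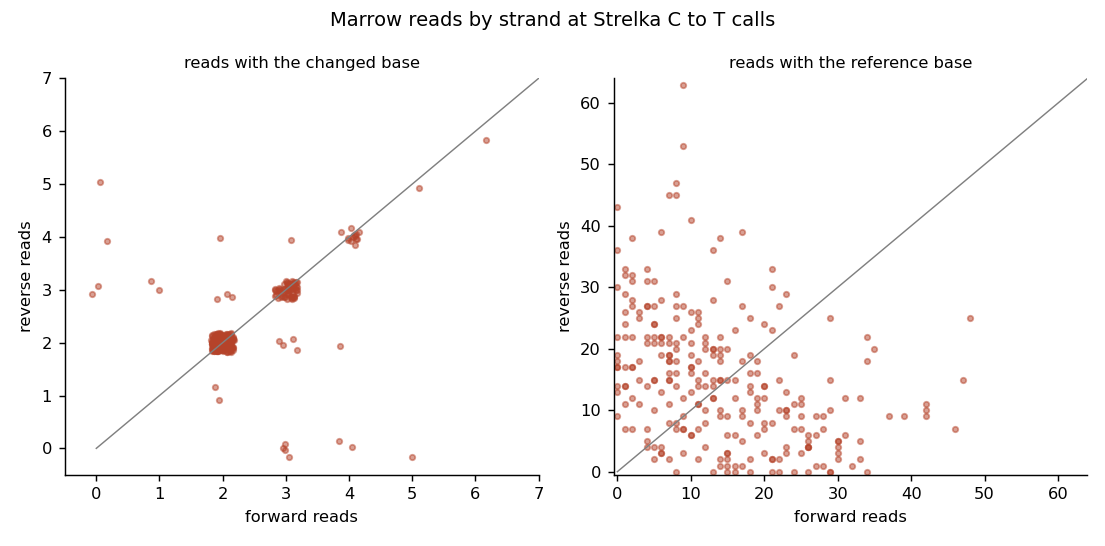
Each point is 1 of the 265 C to T calls that were in the marrow list of the same animal, with forward reads against reverse reads for the changed base (left, points spread slightly so that they can be seen) and for the reference base (right); the grey line marks equal numbers. At most sites changed-base reads sit on the line, mainly at 2 and 2 or 3 and 3. A few sites lie off it, such as Prex2 with 5 forward and 0 reverse reads. Reference reads are scattered widely to both sides of it.

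The second caller shared few of these calls. VarScan2 listed 711 somatic C to T calls, and 5 were also Strelka calls. These were H194Y in Ivl (4 of 13 marrow reads and 0 of 39 ear reads), an intron call in Tfcp2 (4 of 15 and 0 of 42) and a call downstream of Wdr13 (4 of 8 and 0 of 21) in animal 54. A810V in Exoc1 (4 of 16 and 0 of 19) was in animal 108, and a call between Rpl7a-ps10 and Trim42 (5 of 25 and 0 of 26) in animal 136. For the call between Rpl7a-ps10 and Trim42 the marrow list, counted separately, had the change in 10 of 31 reads (32.3%), 5 on each strand. In that list all 4 changed reads of Ivl, Tfcp2 and Exoc1 were on 1 strand. The 0 reads in ear allow, at 3 reads of each depth, a fraction of up to 7.69% in Ivl, 7.14% in Tfcp2, 14.3% in Wdr13, 15.8% in Exoc1 and 11.5% between Rpl7a-ps10 and Trim42. Most VarScan2 calls compared below had the changed base in ear reads too. Among those with a decidable codon 2, 2 and 0 in animals 54, 108 and 136 had no such ear read. Among the amino acid changing ones it was 3, 4 and 0. The CpG share was 31.3% ± 3.81 for Strelka C to T calls and 24.3% ± 2.53 for those of VarScan2 (SD, n = 3), a difference of 7.07 points ± 6.31 (exact sign-flip permutation p = 0.25), on 19, 14 and 4 decidable VarScan2 calls. It was 2.17 points with 1 call per gene (exact sign-flip permutation p = 1; higher in 1 of 3 animals) and 2.88 among calls with a quality of at least 30 (exact p = 0.5; higher in 2 of 3). The arginine shares differed by 0.50 points ± 6.49 (exact sign-flip permutation p = 1), and by -3.24 points without animal 54. Of 44 amino acid changing VarScan2 calls none was a stop, which leaves a share of up to 8.04% (95% Clopper-Pearson) beside 8.52% in Strelka calls.

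No C to T call stood at a position that Strelka also called in another animal. A call near Sp110 in animal 108 (chromosome 1, position 85591319, quality 20) was in the marrow list of animal 54, in 4 of 30 reads, and it was the only position found in any list of another animal. Pairs within 100 bases numbered 6, 3 and 1 in animals 54, 108 and 136. Coding calls were in 1 animal for 1066 genes, in 2 animals for 46 and in 3 for 3 genes, and the median protein length of these genes was 677, 1066 and 2111 residues. The genes hit in 3 animals were Dock6, a guanine nucleotide exchange factor gene (C2042Y, A1257T and V698M), the dynein heavy chain gene Dync1h1 (R285H and the synonymous K289K and Q1920Q) and the spindle assembly factor gene Tpx2 (P73L, A177T and V583I). V583I of Tpx2 in animal 54 had a quality of 70, and the other 8 had qualities from 17 to 48.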

How the data were processed

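Exomes of marrow and ear of 3 mice were compared. Per the submitters' processing notes FastQC, Bowtie2 and SAMtools were used with the builds GRCm38 and mm9, with no step named. Strelka, VarScan2 and SnpEff are named in the deposited files, with no settings stated in the sources used here. The authors' Strelka lists give a quality score per call. The deposited VarScan2 lists give read counts per allele, and the all-variant lists give read counts per allele and strand at sites with at least 11 reads. The remaining deposited fields used, positions and text annotations, carry no other measurement unit.

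Here each site was given its SnpEff coding annotation, and CpG was read from the codons that fit the residue, base and codon position. Python 3.11.15, numpy 2.4.6 and scipy 1.17.1 gave exact sign-flip permutation tests over animals, Fisher's exact tests with Benjamini-Hochberg adjustment (threshold 0.05) and 95% Clopper-Pearson intervals. Marrow and ear of an animal are paired through the labels' animal number. The codon reading was tested on simulated sites. Coding counts leave out the start codon call and 4 calls whose top annotation gave a codon effect that was not accepted as coding. They take 1 call through another annotation. Named calls were all protein-altering calls in the listed genes, all shared with VarScan2, any at a position Strelka called in another animal, and the 10 stops and 10 arginine losses of highest quality and 10 protein-altering calls with most marrow reads. Splice site, start codon and window calls, and the other genes and sites named, were chosen after their values were seen. The calls and lists were chosen with earlier results of these data known. Indel lists were not used here. Promoter sequences are RefSeq's.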

Additional observations from a re-analysis of the deposited data

How the results depend on the processing

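The 12 results were recomputed under 113 alternatives, and 108 kept their direction. Some of the 108 could not have turned. Removal of the pairing by animal, made for each result, cannot change a difference. The choice of annotation cannot change the reference strand share, which does not use it. The CpG difference turned to 1.06 points, and that of amino acid changing calls to 1.38 points, against ear-only sites. The arginine difference from VarScan2 turned to -2.70 points with 1 call per gene and to -3.24 without animal 54, and the quality difference was 0 without animal 136. With animals left out in turn the ranges were -7.06 to -2.02 points for CpG, -9.49 to -0.51 for CpG of amino acid changing calls, -5.33 to -0.36 for arginine, -4.95 to -2.85 for the coding strand, 29.5 to 36.6 for protein-altering, 4.97 to 6.50 for stops, 26.6 to 33.7 for codon positions, 5.10 to 9.02 for the reference strand, 3.46 to 9.32 for CpG and -3.24 to 2.66 for arginine against VarScan2, 0 to 0.50 for quality and -1.04 to -0.24 for the marrow list. Without the pairing by animal (no block) the differences are the same, -4.41 points for CpG and 33.2 for protein-altering calls, and the smallest exact permutation p is 0.1, so no p could pass 0.05. The comparison with VarScan2 calls without a read in ear could not be given, since animal 136 had 0 such calls with a decidable codon or an amino acid change. Depth is known for 266 of 2044 calls, which limits what can be said of the rest.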
